A study of Mus musculus with 20 samples.

Results

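The genes described here are 10 heat shock proteins and chaperones of the mouse liver: Hspb1, Hspb8, Hspa1a, Hspa1b, Hspa8, Hsph1, Dnajb1, Hsp90aa1, Hspd1 and Hspe1. They are 10 of the 21780 genes in the count table and were chosen by symbol around the lower level of Hspb1 in livers with the combined exposure, so their differences between that group and the controls are a description. The study asked how polychlorinated biphenyls (PCBs) change the liver of mice on a high-fat diet (HFD). RNA-seq of polyadenylated RNA was analysed from 20 livers, 5 in each of 4 groups. All mice were male C57Bl/6J, were 8 weeks old at the start and ate a diet with 42% of calories from fat throughout. After 2 weeks on this diet each mouse received a single oral gavage, which was corn oil in the group HFD control, Aroclor 1260 (20 mg/kg) in HFD + Aroclor, PCB 126 (20 μg/kg) in HFD + PCB 126 and both doses together in HFD + Aroclor + PCB 126. The labels give 12 weeks of treatment, while the methods give 12 weeks of diet in total, of which 10 followed the gavage. Aroclor 1260 is a commercial mixture of mostly non-dioxin-like PCBs, and PCB 126 is a single dioxin-like congener that binds the aryl hydrocarbon receptor (AHR). No group on a normal diet was analysed, so the differences below are all among mice on the HFD. Each library is a whole liver sample, in which fewer cells of a type and less RNA per cell cannot be told apart.

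Heat shock proteins keep other proteins folded. HSP70 proteins (Hspa1a, Hspa1b, Hspa8) bind exposed hydrophobic stretches of a client protein, J-domain proteins such as Dnajb1 deliver clients to HSP70 and start its ATP cycle, and HSP110 (Hsph1) exchanges its nucleotide. HSP90 (Hsp90aa1 and Hsp90ab1) finishes the folding of receptors and kinases. In the cytosol it holds AHR and the constitutive androstane receptor, which respond to PCBs, together with cochaperones. Small heat shock proteins (Hspb1, Hspb8) hold unfolded proteins without ATP, and Hspd1 (HSP60) with Hspe1 (HSP10) forms the folding chamber of mitochondria. Under heat or proteotoxic stress the transcription factor HSF1 forms trimers, binds inverted repeats of the letters GAA in the promoters of these genes, and their RNA can rise steeply and fast, while Hspa8 and Hsp90ab1 are abundant without stress.

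The stretches of promoter that carry this repeat are shown first, because several of the 10 genes are known targets of HSF1. The part of HSF1 in the levels below was not tested. RefSeq promoter windows on GRCm38.p6, of 250 bases before to 50 after each start, were present for 8 of the 10 genes. Hspa8 and Hsp90aa1 had no entry. A pair of inverted repeats, GAANNTTC or TTCNNGAA (each its own reverse complement, and both can overlap), stood in 7 of these 8 genes, the exception being Dnajb1. Of all 27025 genes with a window, 17% held one, and of 94 other chaperone genes, 19.1%. The longer run GAANNTTCNNGAA, read on both strands, was found in Hsph1, Hspd1 and Hspe1, and in 0.662% of all genes. The core of the element bound by AHR, TNGCGTG on either strand, was in 0 of the 8 and in 5.84% of all genes. It was in 12 of the 94 other chaperone genes. At such shares, 0 of 8 genes does not show a lack of this core. All these motif counts are matches of letters and not measured binding. The whole upstream part for Hspb1 (chr5:135887669-135887918, plus strand) is printed 5′ to 3′ with the GAA and TTC letters of each match in capitals, and it holds 2 pairs, which start 117 and 97 bases before the start site.
Hspb1: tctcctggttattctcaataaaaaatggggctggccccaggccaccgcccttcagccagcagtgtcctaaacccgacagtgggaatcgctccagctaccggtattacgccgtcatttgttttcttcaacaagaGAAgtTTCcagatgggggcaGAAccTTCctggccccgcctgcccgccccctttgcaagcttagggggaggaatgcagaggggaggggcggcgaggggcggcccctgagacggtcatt

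Shorter windows of 30 bases around the upstream matches of the other genes are given in the same way, 5′ to 3′ on the strand of the gene. Those of Hspa1a (chr17:34972242-34972271, minus strand) and Hspa1b (chr17:34959324-34959353, minus strand) are the same, with a pair that starts 104 bases before the start. The 250 bases before the start of these neighbouring genes were identical at 247 positions (98.8%). The match of Hsph1 (chr5:149636351-149636380, minus strand) lies 33 to 26 bases before a RefSeq start, and its longer run lies after the start and is not printed. Hspd1 (minus strand) and Hspe1 (plus strand) point away from each other and share 1 element (chr1:55088053-55088082), in which 3 overlapping pairs form the longer run. For Hspd1 this element lies before an alternative RefSeq start inside the annotated gene, and the window of its other start held no match. The only match of Hspb8 was after its start.
Hspa1a: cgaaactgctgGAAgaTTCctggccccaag
Hspa1b: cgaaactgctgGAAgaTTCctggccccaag
Hsph1: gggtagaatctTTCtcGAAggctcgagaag
Hspd1: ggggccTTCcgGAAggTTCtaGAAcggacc
Hspe1: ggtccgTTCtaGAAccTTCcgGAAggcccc

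The levels are CPM, a gene's counts scaled to a library of fixed size, after TMM scaling of the library sizes. Differences are log2 fold changes (log2FC) from edgeR. Their standard error was derived as the absolute log2FC divided by the square root of the F statistic of edgeR's quasi-likelihood test. All 10 genes passed the filter of at least 10 counts in total. Totals ranged from 21836506 to 36854887 counts per library, and the lowest count of any of the 10 genes in any library was 10, for Hspa1a. Per kilobase of exon, Hspa8 stood highest in the controls (265 CPM per kb), followed by Hspd1 (190.4), Hspb8 (150.3) and Hspe1 (64.7). Hsp90aa1 (36.8), Hsph1 (21.6), Dnajb1 (19.2), Hspb1 (18.8) and Hspa1b (13.0) were lower, and Hspa1a was lowest (2.38). The reads of Hspa1a and Hspa1b are uncertain between the genes, since 52.7% of the 75-base windows of Hspa1a are also in Hspa1b, and Hspa1a overlaps Gm20481 on the other strand by 2225 bases. Hspd1 and Hspe1 overlap by 112 bases on opposite strands. Whether reads were counted by strand is not given in the sources used here.

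Some facts of the libraries touch these genes. In each library the deviations of log2 CPM from the gene's mean over the 20 libraries were regressed on GC content. The GC slope, per 10 percentage points and relative to the average library, was lower in the combined exposure (-0.33 ± 0.16, SD, n = 5) than in the controls (0.23 ± 0.13, two-sided exact permutation p = 0.00794, the smallest that 5 livers against 5 allow). It was also lower with Aroclor (-0.00057 ± 0.073, exact p = 0.0159). With PCB 126 it was 0.10 ± 0.18 (exact p = 0.222 against the controls). The 10 genes have a GC content of 47.0% (Hsp90aa1) to 61.2% (Hspb1). For the combined exposure against the controls each log2FC is therefore also given from a fit corrected for GC. Hepatocyte markers summed to 69078 to 100277 CPM over the 20 livers. Of the 5, 3 (Apoa1, Ttr and Serpina1c) were lower in the combined exposure than in the controls. Alb, which makes up most of the sum, was at 63441 CPM in the controls and 71216 CPM in the combined exposure. Alb and Cps1 gave an adjusted p above 0.05. Of the 4 stellate cell markers, 3 were higher and Des was lower in the combined exposure, with sums of 239 to 312 CPM against 117 to 218 in the controls. Each of the 5 smooth muscle markers, 4 cholangiocyte and 5 red blood cell markers gave an adjusted p above 0.05. Of the Kupffer and endothelial cell and adipocyte lists (5, 4 and 4 genes), 1 gene each differed, and their summed ranges overlapped between these groups. The part of these cell types in the results below was not tested. Cyp1a2, an AHR target, was at 387 ± 99.4 CPM in the controls and higher in the groups with PCB 126 (1590.2 ± 606 and 775 ± 186 CPM). Cyp1a1, another AHR target, was at 4.09 to 314 CPM with PCB 126. With the combined exposure it was at 0.79 to 2.62 CPM, which overlapped with the controls (0.22 to 0.94). Cyp2b10, the other exposure marker looked at, was at 0.35 to 6.62 CPM in the controls. It was at 2.89 to 30.7 CPM with Aroclor and 1.43 to 25.7 CPM with the combined exposure.

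Hspb1 encodes HSP27, a small heat shock protein that binds unfolding proteins and actin. It stood at 9.07, 8.84, 13.5, 30.4 and 35.3 CPM in HFD control replicates 1 to 5. With Aroclor it was at 3.72, 5.16, 11.8, 8.71 and 15.4 CPM, and with PCB 126 at 3.85, 15.2, 13.1, 15.4 and 10.6 CPM. With the combined exposure it was at 4.44, 4.51, 7.70, 1.31 and 2.38 CPM. Every liver of the combined exposure was below every control, while those of the single exposures overlapped with both. The group means fell in the order control (19.4 ± 12.5 CPM, SD, n = 5), PCB 126 (11.6 ± 4.77), Aroclor (8.96 ± 4.79) and combined (4.07 ± 2.45), and each neighbouring pair in this order overlapped. The difference between combined exposure and control was a log2FC of -2.25 ± 0.51 (SE), or -1.74 ± 0.47 after GC correction. Hspb1 is the richest in GC of the 10 genes. Without any 1 library the log2FC was between -2.64 and -1.92, the latter without control replicate 5. Against the single exposures the combined group differed by a log2FC of -1.14 ± 0.50 (Aroclor) and -1.51 ± 0.50 (PCB 126). After GC correction these were -0.82 ± 0.47 and -1.14 ± 0.47.

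Hspb8, a small heat shock protein that works with Bag3 in the removal of misfolded proteins by autophagy, was more abundant and far less variable. Controls 1 to 5 held 264, 236, 292, 309 and 365 CPM, and livers with the combined exposure held 217, 175, 151, 142 and 158 CPM. Again no liver of the combined exposure reached the lowest control. In Aroclor the range was 181 to 325 CPM, and in PCB 126 it was 196 to 256 CPM. Both single exposures overlapped with the controls. The log2FC of combined exposure against control was -0.80 ± 0.15, and -0.73 ± 0.16 after GC correction. Hspb1 and Hspb8 were the 2 of the 10 genes whose groups did not overlap in this comparison, in which 8.14% of all tested genes were lower without overlap. Nothing is read from that count, because the comparison chose the genes.

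**Figure D1:**
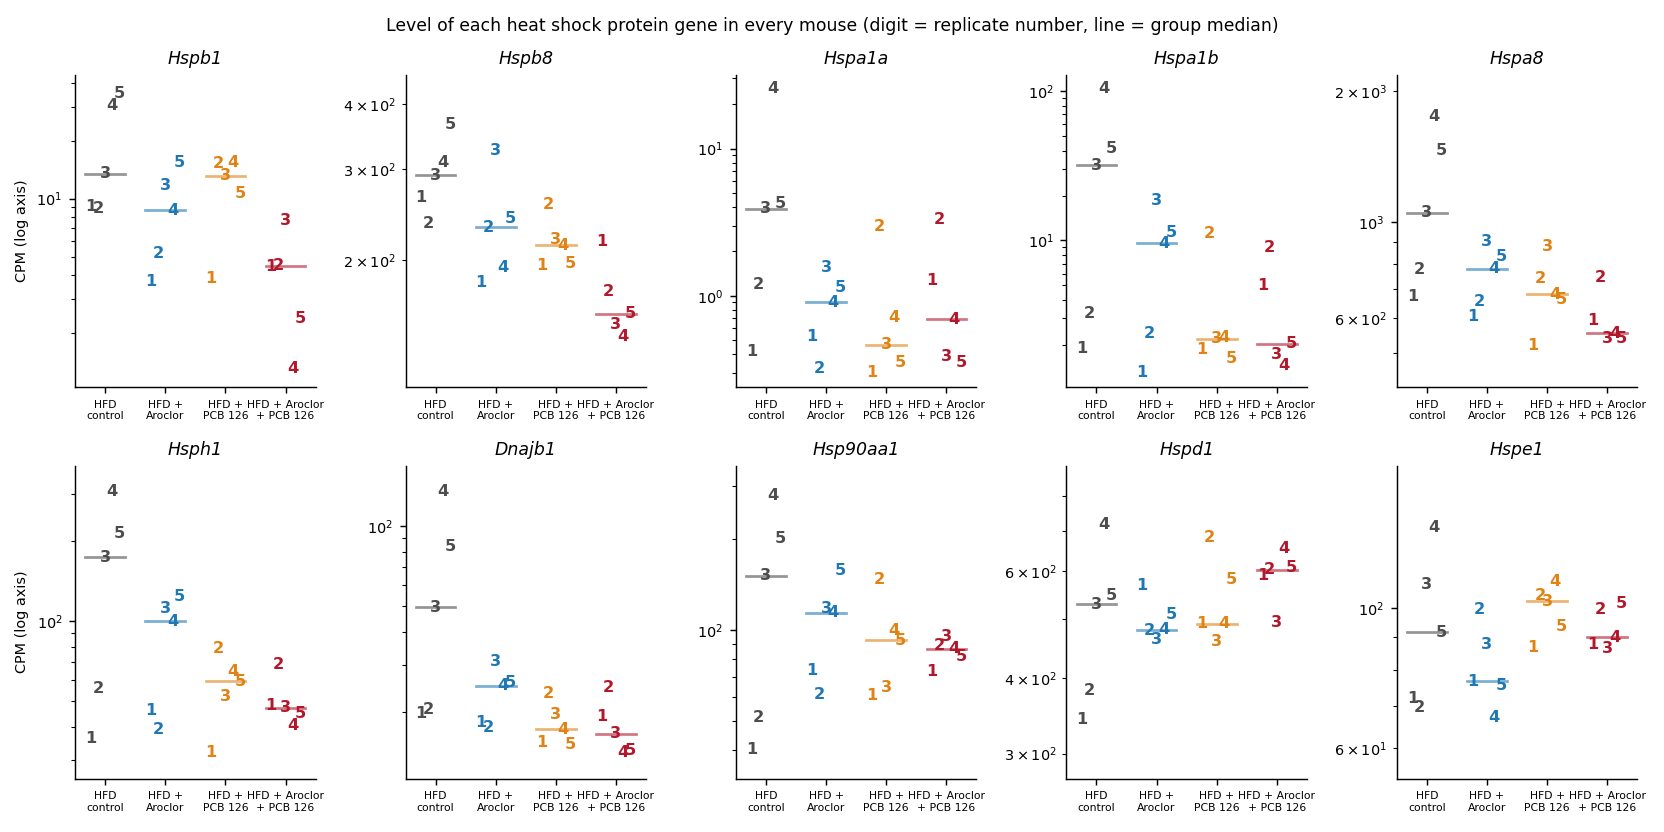
Level of each of the 10 genes in every liver, in CPM on a log axis, for the 4 groups; each digit is 1 mouse and gives its replicate number, and each line is the group median. Control replicates 1 and 2 are the 2 lowest controls in every panel, and controls 3 to 5 lie above every exposed liver for Hspa1a, Hspa1b, Hspa8, Hsph1 and Dnajb1.

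The inducible HSP70 genes Hspa1a and Hspa1b had the widest span between controls of the 10 genes. Hspa1b, the stress-inducible HSP70, was at 1.88, 3.22, 31.8, 103.7 and 41.4 CPM in controls 1 to 5, a 55.1-fold range within 1 group. With Aroclor it was at 1.30, 2.36, 18.5, 9.61 and 11.3 CPM, with PCB 126 at 1.85, 11.2, 2.19, 2.24 and 1.62 CPM, and with the combined exposure at 4.97, 8.94, 1.71, 1.45 and 2.03 CPM. Thus 3 controls were high, 2 controls were within the range of the exposed livers, and the 3 highest values of the series were all in the controls. Against the controls the log2FC was -3.26 ± 0.93 for the combined exposure, -2.36 without control replicate 4 and -3.85 without combined replicate 2. Its near-identical neighbour Hspa1a was at 0.42, 1.20, 3.89, 25.5 and 4.26 CPM in controls 1 to 5. With Aroclor it ranged from 0.32 to 1.56 CPM, with PCB 126 from 0.30 to 2.96 CPM and with the combined exposure from 0.35 to 3.32 CPM. Control replicate 4 alone held 25.5 CPM. For Hspa1a the log2FC of the combined exposure was -2.56 ± 0.88, which became -1.02 without control replicate 4 and -3.39 without combined replicate 2.

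Hspa8, the constitutive HSC70, kept the same order on a narrower scale. Controls 1 to 5 had 673, 777, 1049.5, 1749.9 and 1458 CPM. The combined exposure had 593, 744, 539, 555 and 541 CPM, with replicate 2 apart from the other 4. Aroclor ranged from 606 to 901 CPM and PCB 126 from 521 to 878 CPM, so that both overlapped with controls 1 and 2 and lay below controls 3 to 5. The combined exposure gave a log2FC of -0.94 ± 0.21, and -0.97 ± 0.20 after GC correction.

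Hsph1 (HSP110) and Dnajb1 (HSP40), the nucleotide exchange factor and the J-domain partner of HSP70, followed the HSP70 genes mouse by mouse. Hsph1 was at 36.4, 55.9, 173.6, 306 and 214 CPM in controls 1 to 5 and at 48.2, 69.0, 47.3, 40.5 and 45.1 CPM in the combined exposure. The lowest control was below all 5 livers of the combined exposure, although the log2FC was -1.65 ± 0.44. Aroclor replicates split in the same manner, with 46.2 and 39.1 CPM in replicates 1 and 2 and 111, 99.8 and 123.4 CPM in replicates 3 to 5. For Dnajb1 the controls held 19.7, 20.3, 49.5, 134.7 and 83.8 CPM. The exposed livers lay between 14.0 and 30.9 CPM, the range being 17.5 to 30.9 with Aroclor, 15.0 to 23.5 with PCB 126 and 14.0 to 24.7 with the combined exposure. Controls 1 and 2 were inside these ranges and controls 3 to 5 were above all 15 exposed livers. The log2FC of the combined exposure was -1.79 ± 0.39, and -1.28 without control replicate 4.

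Hsp90aa1, the inducible form of cytosolic HSP90, was at 40.2, 51.2, 151.4, 280.1 and 201 CPM in controls 1 to 5. With the combined exposure it was at 72.9, 89.1, 95.0, 86.6 and 81.7 CPM, above controls 1 and 2 and below controls 3 to 5 in every liver. The log2FC of -0.77 ± 0.39 therefore came with controls on both sides of the exposed group, and it was -0.38 without control replicate 4. Aroclor ranged from 60.9 to 157 CPM and PCB 126 from 60.5 to 147 CPM. Hsp90ab1, the constitutive HSP90 and not one of the 10, had the same order in the controls at 951, 1043, 1426, 1808 and 1679 CPM.

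The mitochondrial pair had the log2FC nearest to 0 of the 10 genes in the combined exposure. Hspd1 (HSP60) had 341, 381, 529, 717 and 547 CPM in controls 1 to 5 and 590.4, 604, 495, 655 and 608 CPM with the combined exposure, a log2FC of 0.23 ± 0.16. Hspe1 (HSP10) had 71.9, 69.7, 108.9, 134.5 and 91.7 CPM in the controls and 86.5 to 101.9 CPM with the combined exposure, a log2FC of -0.03 ± 0.15. Both genes were lowest in controls 1 and 2 and highest in control 4, as the cytosolic genes were, yet every liver of the combined exposure lay within the range of the controls. Hspd1 was the single gene of the 10 with a positive log2FC for the combined exposure. The median log2FC of the 10 genes in this comparison was -1.30 (-1.32 after GC correction), with 9 negative, beside a median of -0.00096 over all tested genes. For the genes without a corrected value above, GC correction gave -2.03 for Hspa1a, -2.80 for Hspa1b and -1.83 for Hsph1. The corrected log2FC was -1.68 for Dnajb1, -0.96 for Hsp90aa1, 0.20 for Hspd1 and -0.17 for Hspe1.

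The order of the mice within the controls was shared by nearly all of the 10 genes. Replicates 1 and 2 were the 2 lowest controls for 10 of 10 genes, replicate 4 was the highest for 8 and replicate 5 for the other 2 (Hspb1 and Hspb8). In PCB 126, replicate 2 was highest for 7 genes and replicate 1 lowest for 7. In the combined exposure, replicate 2 was highest for 5 genes. Within the controls the 2 low mice also had the largest totals (36854887 and 33848114 counts) and the highest GC slopes (0.41 and 0.29), and replicate 4 had the smallest total (21836506) and the lowest slope (0.092). The part of depth and GC slope in the order of the controls was not tested. The summed level of 8 immediate early genes (Fos, Fosb, Jun, Junb, Egr1, Atf3, Ier2 and Dusp1), which rise quickly on handling or stress, took another order in the controls, at 273, 332, 83.1, 285 and 549 CPM in replicates 1 to 5. It was highest of all livers in PCB 126 replicate 2 (629 CPM), which was also the liver of that group with the most Hspa1a, Hspa1b and Hsph1. The part of handling in the levels of the heat shock genes was not tested.

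The spread between mice was wide in the controls. The median coefficient of variation (CV) of the 10 genes was 67.3% in the controls against 30.4% with Aroclor, 24.7% with PCB 126 and 19.8% with the combined exposure. Over the 11342 genes with a mean of at least 1 CPM the medians were 17.1%, 13.8%, 15.6% and 13.5%. By mean CV over the 4 groups, Hspa1a and Hspa1b were at percentile 99.6 and 99.5 of these genes, Hspb1 at 98.2, Hsph1 at 96.9, Hsp90aa1 at 95.8 and Dnajb1 at 95.1. Hspa8 was at 76.4, and Hspb8 (59.2), Hspd1 (53.6) and Hspe1 (48.2) were near the middle. Since the genes were chosen with these livers known, no test is given for the spread.

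**Figure D2:**
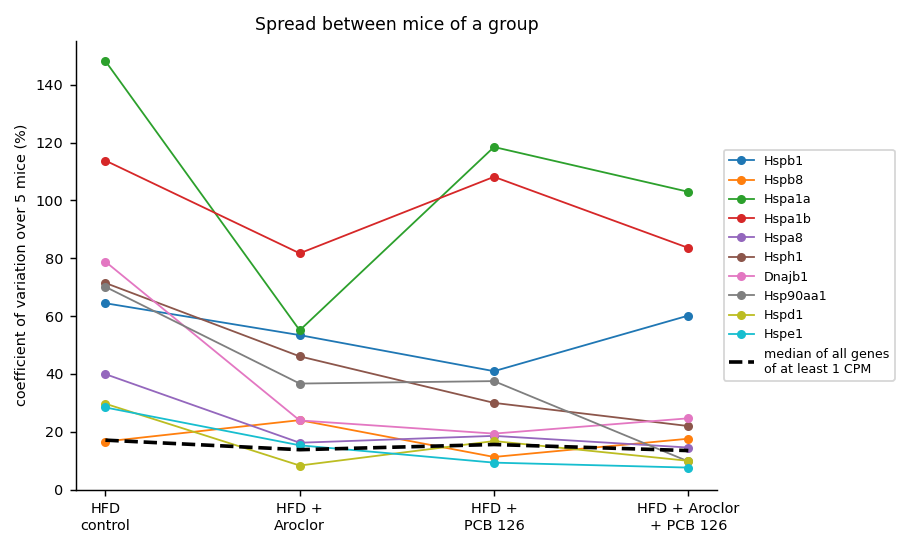
Coefficient of variation over the 5 mice of each group, in percent, for the 10 genes (coloured lines, which connect groups only to guide the eye) and the median of all genes of at least 1 CPM (dashed line). Hspa1a and Hspa1b lie above 50% in each group, and Hsph1, Dnajb1 and Hsp90aa1 come down from 70.1% to 78.8% in the controls to 9.77% to 24.7% in the combined exposure.

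Between mice of the same group the genes moved in blocks. Deviations from the group means of log2 CPM were correlated over the 20 livers, as a description with no p, since the points share library depth and GC slope. Among the 6 cytosolic genes Hspa1a, Hspa1b, Hspa8, Hsph1, Dnajb1 and Hsp90aa1, the 15 pairs had a Pearson r of 0.81 to 0.96 (median 0.89). Without control replicate 4 these were 0.74 to 0.94 (median 0.85). Hspb1 followed them less closely (0.58 to 0.76), as did Hspb8 (0.46 to 0.70) and the mitochondrial pair (0.58 to 0.79). The lowest values were between the mitochondrial pair and the small heat shock proteins, at 0.24 to 0.42.

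**Figure D3:**
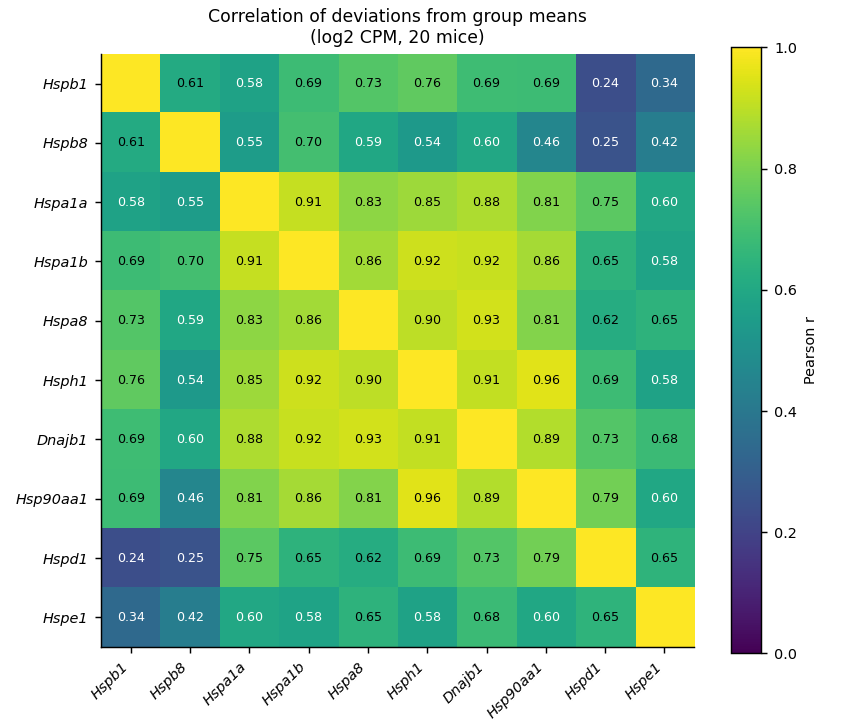
Pearson r between genes of the deviations of log2 CPM from the group means over 20 livers, from 0 (dark) to 1 (bright), with each value printed in its cell. The block from Hspa1a to Hsp90aa1 holds values of 0.81 or more, and Hspd1 with Hspb1 has the lowest, 0.24.

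The genes most like Hspb1 were others than the inducible genes of the 10. Among 11341 other genes, the levels among the 5 most correlated with Hspb1 over the 20 livers included those of Adck5 (r = 0.94), Ap3d1 (0.94), Stat6 (0.92) and Hsp90ab1 (0.92). By deviations from the group means the closest 5 included Pdia5 (0.91), Syvn1 (0.90), Sqstm1 (0.89) and Stat6 (0.89). Their GC contents were 51.9% to 57.6%, and the part of the GC slope of the libraries in these correlations was not tested. Hsph1, looked at after its values were seen, gave 5 other genes by deviation. Its closest genes by deviation were Stip1 (0.97), the HOP adaptor that joins HSP70 to HSP90, Hsp90aa1 (0.96), Hsp90ab1 (0.95), Ubfd1 (0.93) and Hspa1b (0.92), with Ahsa1, the activator of the HSP90 ATPase, and Bag3 in places 6 and 7. By deviation, Hsp90ab1 (0.86) and Stip1 (0.84) were also close to Hspb1, in places 8 and 14. The level of Hsf1 itself had an r of 0.04 with Hsph1 and 0.59 with Hspb1.

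The single exposures ask whether either PCB alone lowered these genes. With Aroclor all 10 had a negative log2FC against the controls (median -0.75, against -0.01 over all tested genes). None passed edgeR's quasi-likelihood test at an adjusted p of 0.05, and 0% of all 15522 tested genes did. At an unadjusted p under 0.05 there were 7 of 10, against 17.2% of all genes. The lowest adjusted p was 0.184, for Dnajb1 with a log2FC of -1.39 ± 0.38. For Hspb1 it was 0.255 (log2FC -1.11 ± 0.48) and for Hspa1b 0.247 (-2.07 ± 0.87, and -1.17 without control replicate 4). DESeq2 called 1 of the 10, Dnajb1 (adjusted p = 0.0425), and 0.921% of all genes. These tests use the same 5 controls that entered the choice of the genes, so they are not independent of it.

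With PCB 126, 8 of the 10 genes had a negative log2FC against the controls (median -0.72), and Hspd1 and Hspe1 were at 0.10 and 0.06. Again edgeR called 0 of the 10, beside 0.116% of all genes (18 genes). At an unadjusted p under 0.05 there were 6 of 10, against 14.7% of all genes. Dnajb1 came nearest with a log2FC of -1.76 ± 0.39 and an adjusted p of 0.0548, which was 0.0200 without control replicate 1, 0.0286 without control replicate 2 and up to 0.150 without others. With the study's FPKM filter, which kept 9 of the 10 genes, edgeR called Dnajb1 (adjusted p = 0.0399) beside 0.523% of all genes. Hspa1b had a log2FC of -3.24 ± 0.92 (adjusted p = 0.132), which was -2.34 without control replicate 4 and -4.20 without PCB 126 replicate 2. Hsph1 had a log2FC of -1.45 ± 0.44 (adjusted p = 0.153) and Hspa8 of -0.71 ± 0.21 (0.145). Hspb1 had -0.73 ± 0.48 (adjusted p = 0.488). DESeq2 called 4 of the 10 with PCB 126, namely Dnajb1, Hspa1a, Hspa1b and Hspa8, and 2% of all genes, so the number called here depends on the tool and on the filter. These tests too share the controls with the choice of the genes.

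PCB 126 against Aroclor is the comparison whose group means use none of the livers by which the genes were chosen. Its standard errors, p and intervals still depend on those livers, because the spread was estimated from all groups in 1 model. For Dnajb1 the CV was 23.9% with Aroclor and 19.4% with PCB 126, but 78.8% in the controls. In a fit to the compared groups alone, edgeR also called 0 of the 10, beside 0.0136% of all genes. Here edgeR and DESeq2 each called 0 of the 10, beside 0.0258% and 0.425% of all genes. At an unadjusted p under 0.05 there were also 0 of the 10, against 9.08% of all genes. The adjusted p ran from 0.576 (Hspe1, log2FC 0.29 ± 0.15) to 0.987 (Hspa1a). Hspb1 differed by a log2FC of 0.37 ± 0.48, an interval of -0.56 to 1.31 at 1.96 SE, and Hspa1b by -1.17 ± 0.88 (-2.90 to 0.56). Hspa8 was the most precisely measured of the HSP70 genes, at -0.12 ± 0.21 (-0.52 to 0.29). For Hspb1, Hspa1a, Hspa1b, Hsph1 and Dnajb1 this interval passes a log2FC of 1 or -1 on at least 1 side, so the PCBs are not shown to act alike.

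**Figure D4:**
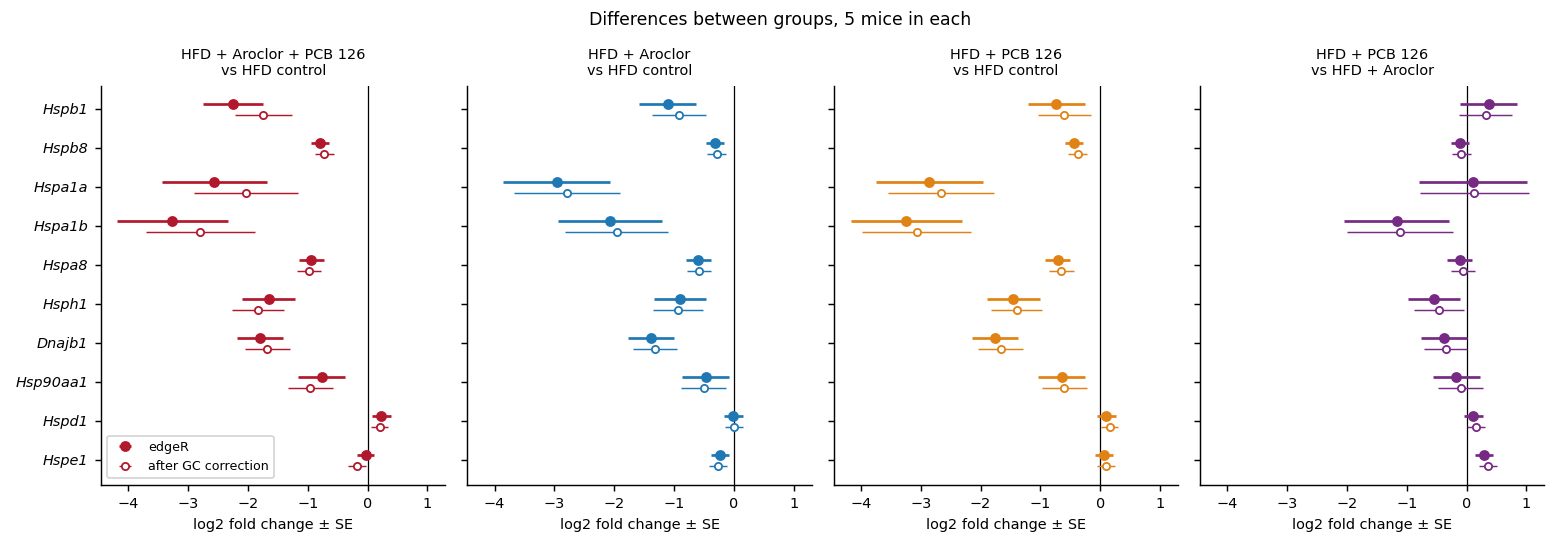
The log2 fold change (x axis) with its standard error for the 10 genes in 4 comparisons, from edgeR (filled) and after GC correction (open), with 5 mice in each group. In the comparisons with the controls the 6 cytosolic genes and both small heat shock proteins lie left of 0, and Hspd1 and Hspe1 lie within 0.30 of 0.

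The rest of the chaperone system was described by 8 lists of 120 other genes, of which 115 were tested. In the combined exposure, 49 of the 115 passed edgeR's test against the controls (42.6%, against 32.8% of all tested genes). Of these, 35 were lower and 14 were higher, while 17% of all tested genes were lower and 15.8% higher. With the study's FPKM filter 53 of the listed genes were called, beside 4705 of 8995 genes, a larger share of all genes than the 32.8%. How many of the listed genes passed that filter is not given, so the comparison with all genes depends on the filter. The median log2FC of the 115 was -0.08. After GC correction 18 were left (15.7%, against 6.64% of all genes), 16 lower and 2 higher (3.48% and 3.16% of all genes), and 12 of the 18 were among the 49. The combined exposure thus had more lower than higher chaperone genes in both fits, at 71.4% and 88.9% of those called, against 51.8% and 52.4% among all genes called. This split is a description, since it uses the same control and combined livers by which the heat shock genes above were chosen. Among the listed genes, Hsp90ab1 and Bag3 moved with Hsph1 between mice of a group (r = 0.95 and 0.92 by deviation). How far the split follows from that choice was not tested.

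The list of HSP90 proteins and cochaperones held the most lower genes by count. Of its 19 genes, 9 were lower and 1 was higher (52.6% called, against 32.8% of all tested genes). After GC correction 6 were lower and 0 higher (31.6% called, against 6.64%). Hsp90ab1 fell to 899.6 ± 79.8 CPM from 1381 ± 378 (log2FC -0.62 ± 0.16, adjusted p = 0.00656, and 0.0408 after GC correction). Unc45a, a myosin chaperone that binds HSP90, fell with a log2FC of -1.01 (adjusted p = 0.000648), Cdc37, which brings kinases to HSP90, with -0.59 (0.00231) and the immunophilin Fkbp4 with -0.60 (0.00249). After GC correction the adjusted p was 0.0228 for Unc45a, 0.0631 for Cdc37 and 0.133 for Fkbp4. Ptges3 (p23), a cochaperone in the HSP90 complex of AHR, had a log2FC of 0.21 (adjusted p = 0.221), and Dnajc7, which binds both HSP70 and HSP90, had one of -0.04 (0.829).

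Among 10 cofactors of HSP70, 5 were lower and 1 was higher (60% called, against 32.8% of all tested genes). Bag3, which links HSP70 to Hspb8 and is itself induced by HSF1, was at 29.8, 29.9, 80.9, 111.8 and 83.03 CPM in controls 1 to 5 and at 24.3 to 31.7 CPM in the combined exposure. Its controls 1 and 2 thus lay within the range of the exposed livers, as for Dnajb1. The log2FC was -1.35 ± 0.28 (adjusted p = 0.00195, and 0.0400 after GC correction), and with PCB 126 alone it was also -1.35 ± 0.28 (0.0506). Hspbp1, an inhibitor and exchange factor of HSP70, fell with a log2FC of -1.19 (adjusted p = 0.00117, and 0.0342 after GC correction), from 9.90 ± 2.81 to 4.35 ± 1.49 CPM with no overlap. Bag6, a chaperone of tail-anchored and misplaced proteins, fell with -0.72 (0.00133, and 0.107 after GC correction).

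Of 41 J-domain proteins, 7 were higher and 6 lower, or 31.7% called, near the 32.8% of all tested genes. Dnajb6, which suppresses aggregation, rose and had the smallest p of the list, with 13.7, 15.4, 15.6, 16.8 and 17.1 CPM in controls 1 to 5 and 28.0, 25.9, 21.4, 28.9 and 29.8 CPM in the combined exposure. Its log2FC was 0.77 ± 0.10 (adjusted p = 0.000438, and 0.00277 after GC correction), and the groups did not overlap. Dnaja2 also rose (log2FC 0.53, adjusted p = 0.00126, and 0.281 after GC correction), and Dnajb2 fell (-0.82, 0.000707 and 0.0303). Of 11 other HSP70 and HSP110 genes, 2 rose and 2 fell (36.4% called, against 32.8%). Hspa9, the HSP70 of mitochondria, rose with a log2FC of 0.33 (adjusted p = 0.0276) and Hspa14 with 0.31 (0.0138), and Hyou1, the HSP110 of the endoplasmic reticulum, fell with -1.05 (0.0206). After GC correction none of these 3 passed (adjusted p = 0.611, 0.869 and 0.101).

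The transcription factors of the heat shock response were measured as well. Of 6 heat shock factors and regulators, Hsf1 fell (log2FC -0.70 ± 0.15, adjusted p = 0.00217), Hsf4 fell (-1.01, 0.00712) and Hsf2 rose (0.37, 0.0118). The share called was 50%, against 32.8% of all tested genes. Hsf1 was highest in control 1 and stood at 14.6, 10.8, 12.5 and 14.6 CPM in controls 2 to 5, so its order there was not that of the inducible genes. After GC correction the adjusted p was 0.161 for Hsf1, 0.282 for Hsf4 and 0.173 for Hsf2, and the log2FC of Hsf2 turned to -0.20. Of 5 other small heat shock proteins tested, 2 were lower (40% called, against 32.8%). They were Cryab (log2FC -0.65, adjusted p = 0.00897) and Hspb6 (-0.47, 0.0106), and with GC correction the adjusted p was 0.0614 and 0.532.

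The cytosolic chaperonin and its helper prefoldin (13 tested genes) had 5 lower and 1 higher (46.2% called, against 32.8% of all tested genes). Cct7, a subunit of the chaperonin ring that folds actin and tubulin, fell from 105.5 ± 15.5 to 76.3 ± 9.39 CPM (log2FC -0.47 ± 0.11, adjusted p = 0.00369, and 0.0133 after GC correction). Of the prefoldin subunits Pfdn6 fell (-0.79, 0.00217 and 0.0427), while Vbp1 rose (0.75, 0.00221, and 0.271 after GC correction). Of 10 mitochondrial cochaperones and proteases, 4 fell and 1 rose (50% called, against 32.8%). Clpp (log2FC -0.89, adjusted p = 0.00226) and Lonp1 (-0.50, 0.00343), proteases of the matrix, fell, and Yme1l1, a protease of the inner membrane, rose (0.67, 0.00228). After GC correction 0 of these 10 genes passed edgeR's test, with 1 at an unadjusted p under 0.05. No gene of the 115 passed edgeR's test with Aroclor, with PCB 126 or between the single exposures. At an unadjusted p under 0.05 there were 14 (12.2%, against 17.2% of all genes), 14 (12.2%, against 14.7%) and 4 (3.48%, against 9.08%). DESeq2 called 0, 2 (Bag3 lower, Dnajb6 higher) and 0 of them, or 0%, 1.74% and 0%, beside 0.921%, 2% and 0.425% of all genes.

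**Figure D5:**
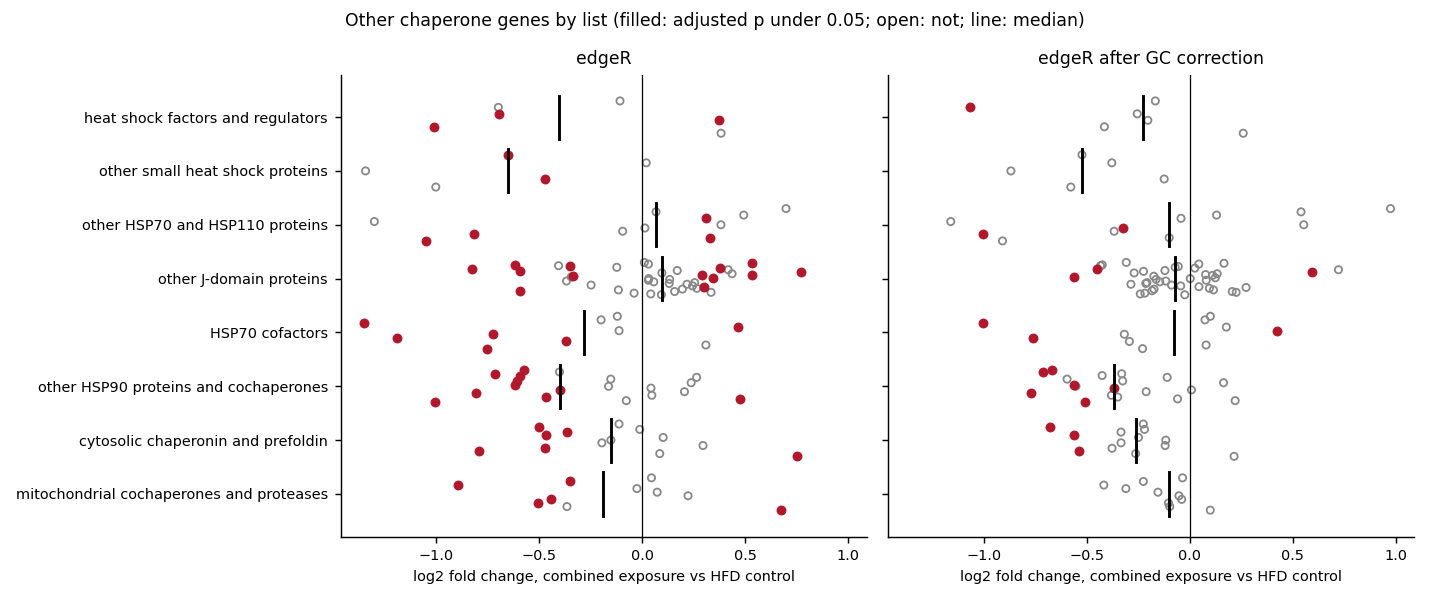
The log2 fold change of 115 other chaperone genes between the combined exposure and the controls (x axis), grouped in 8 lists, from edgeR (left) and after GC correction (right); filled points have an adjusted p under 0.05 and lines are list medians. Filled points number 49 on the left, 35 of them below 0, and 18 on the right, 16 of them below 0.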

How the data were processed

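The authors prepared stranded libraries of polyadenylated RNA from 5 frozen livers per exposure. They mapped the reads with STAR (2.6) on the assembly GRCm38.p6 and tallied them per gene with HTSeq (0.10.0), per the methods and the submitters' processing notes. The deposited table holds these raw counts, not normalized, for 21780 Ensembl genes and 20 libraries. Which annotation release was used is not given in the sources used here. Genes with at least 10 counts in total (15522) were kept. Library sizes were scaled by TMM, and edgeR 4.0.16 (R 4.3.3) estimated 4 group means in 1 model with 16 residual degrees of freedom. Two-sided quasi-likelihood tests were adjusted by Benjamini-Hochberg over all tested genes (threshold 0.05). The script was checked on simulated data. Symbols come from GENCODE M21. For the 10 genes no p is given in comparisons with the combined exposure, which chose them. GC correction used an offset per gene and library. It came from a spline (6 degrees of freedom) on GC content of the deviations of log2 CPM from the gene's mean. Alternatives were DESeq2 1.42.0 (the study's tool), size factors by relative log expression, no filter, the study's FPKM filter (a mean of 1 FPKM, and 1 FPKM in at least 3 libraries), a fit to the compared groups alone, a replicate block, GC correction with and without that block, and leaving out each library. Libraries of a group differed beyond sampling noise in each of 40 pairs (lowest chi-square per degree of freedom 19.7). Totals were at least 21836506 counts per library, and the standard errors cover the variation between livers as well as that of counting. The members and lists were chosen with earlier results of these data known. The other chaperone genes named are up to 3 per list with the smallest p in the combined exposure among those called whose average was 1 CPM or more, and Hsf1, Hsp90ab1, Ptges3 and Dnajc7. Some genes that the naming rules cover are not reported here. The gene Cct6a was not analysed here.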

Additional observations from a re-analysis of the deposited data

Results flagged for a closer look

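In 7 cases 1 liver stood apart from the other 4 of its group by Dixon's test, out of 152 groups screened (37 genes and the GC slope in 4 groups each). Chance does this in about 1 in 20 groups, which would be 7.6 of these. Hspa1a was at 25.5 CPM in HFD control replicate 4. In HFD + PCB 126 replicate 2, Hspa1a was at 2.96 CPM and Hspa1b at 11.2 CPM, both the highest of their group. In HFD + Aroclor + PCB 126 replicate 2, Hspa8 (744 CPM), Hsph1 (69.0 CPM) and Bag3 (31.7 CPM) were the highest of their group. Yme1l1 was lowest in HFD + Aroclor + PCB 126 replicate 3, at 100.7 CPM.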

How the results depend on the processing

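The count of other chaperone genes called in the combined exposure was 49, and between 40 and 50 when 1 library was left out. It was 53 under DESeq2 and under the FPKM filter, and 18 under GC correction, with or without the replicate block. In PCB 126 it was 0, between 0 and 2 when 1 library was left out, 2 under DESeq2, and 1 under each of the FPKM filter, the replicate block, GC correction and GC correction with the block. The 1 gene was Bag3 (lower) under the filter and the block alone, and Dnajb6 (higher) under both GC corrections. Without HFD control replicate 1 or 2 it was Bag3, and without HFD + PCB 126 replicate 3 both genes. The cause was not tested. Hspb1 kept its direction in the combined exposure under each alternative, between -2.64 and -1.55, the latter with GC correction and replicate block. Hspa1a in PCB 126 against Aroclor (0.11) turned to -0.27 with the block, alone or with GC correction, and ranged from -0.99 to 0.41 without 1 library. Hspd1 in Aroclor against control (-0.01) turned to 0.013 with the block, 0.012 with GC correction and block, and 0.0012 with GC correction alone, and ranged from -0.12 to 0.16 without 1 library. Without 1 library, Hspd1 ranged from -0.0072 to 0.27 and Hspe1 from -0.023 to 0.22 in PCB 126 against control, and Hspb8 from -0.20 to 0.031 and Hsp90aa1 from -0.40 to 0.029 in PCB 126 against Aroclor. Same-numbered mice are different animals whose deviations did not all correlate (0.08 to 0.77 between combined exposure and control, and -0.21 to 0.20 between PCB 126 and control), so the block pairs only a number. It changed no call of the 10 genes, whereas the FPKM filter added Dnajb1 in PCB 126 against control (adjusted p = 0.0399), and DESeq2 added 4 of the 10 there and 1 in Aroclor against control. Hspa1a, at 10 counts in its lowest library, is limited by depth, and the FPKM filter left 9 of the 10 genes.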
